A study of Rattus norvegicus with 6 samples.

Results

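The miR-30 family was represented on the array by 11 of its 758 miRNAs, which were all miRNAs of the files whose names begin with rno-miR-30a, rno-miR-30b, rno-miR-30c, rno-miR-30d or rno-miR-30e. They comprised 5 miRNAs of the 5p arm and 6 of the 3p arm, the arms being the strands cut from the 2 sides of a precursor hairpin. MiRNA profiles of the myocardium were measured in 3 rats of the model group and 3 rats of the control group, 1 rat per array, 4 weeks after surgery. All were male Sprague–Dawley rats of 200 ± 20 g whose age was not given. Model rats had the left anterior descending coronary artery tied (myocardial infarction, MI), while in control rats the thread was passed and not tied. The rats for the arrays were drawn at random from larger groups. According to the labels, the model tissue came from the marginal zone of the infarct, whereas the control tissue was described only as myocardial tissue, so MI and the place of sampling cannot be told apart.

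MiR-30 miRNAs load onto Argonaute proteins and guide them to messenger RNAs that pair with bases 2 to 8 of the miRNA, called the seed. The family is known as abundant in cardiomyocytes, and members of it are known to repress connective tissue growth factor, a profibrotic protein, and the autophagy protein beclin 1. The 5p arm is usually the loaded strand, and the 3p arm of the same hairpin is usually the less abundant partner.

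Mature sequences were found in the RefSeq table (build GRCr8) for 6 of the 11 miRNAs, 3 of each arm. The 5p sequences are shown with the seed in capitals, because the family members and a miRNA of another name, rno-miR-384-5p, share it.

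rno-miR-30a-5p: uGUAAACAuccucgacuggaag

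rno-miR-30e-5p: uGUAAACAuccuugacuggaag

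rno-miR-30c-5p: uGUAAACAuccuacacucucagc

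rno-miR-384-5p: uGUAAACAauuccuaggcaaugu

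The first 12 bases of rno-miR-30a-5p, rno-miR-30c-5p and rno-miR-30e-5p were identical. Counted from 1 at the 5′ end, rno-miR-30a-5p and rno-miR-30e-5p differed by the single substitution C13U, and rno-miR-30c-5p differed from each of them at 5 positions of the shared length. Such near-identical miRNAs can bind each other's probes, and how well the probes separated them was not tested. Outside the family, 1 further miRNA of the array, rno-miR-384-5p, held the same seed, and it was detected on 0 of the 6 arrays.

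The 3p sequences are shown because their seeds differ from that of the 5p arm.

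rno-miR-30a-3p: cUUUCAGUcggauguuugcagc

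rno-miR-30c-1-3p: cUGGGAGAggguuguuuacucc

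rno-miR-30c-2-3p: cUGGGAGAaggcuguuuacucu

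The 3p arms of the 2 miR-30c precursors shared the seed UGGGAGA and differed at 3 positions (G9A, U12C and C22U), while rno-miR-30a-3p had the seed UUUCAGU. In GRCr8, rno-miR-30a-5p lay at chr9:33233946-33233967 on the plus strand in the miRNA gene Mir30a. The sequence of rno-miR-30c-5p occurred in 2 genes, at chr9:33253695-33253717 on the plus strand in Mir30c2 and at chr5:139634505-139634527 on the minus strand in Mir30c1. That of rno-miR-30e-5p lay at chr5:139637504-139637525 on the minus strand in Mir30e. In the same annotation Mir30c1 and Mir30e were neighbours within the bounds of the protein-coding gene Nfyc, and Mir30b and Mir30d were neighbours within those of the long noncoding RNA LOC102551574. Whether they lie in exons or introns was not analysed here.

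The 6 arrays lay on 1 slide with 1 scan time, and 206 to 218 miRNAs were detected on a control array against 221 or 222 on a model array. A probe counted as detected when its signal was over 3 times its error, and the signal of a miRNA was the sum of its detected probes. Each array was then divided by its 75th percentile over the 198 miRNAs detected on all 6 arrays, and the values are given as log2 of this scaled signal. A scaled log2 signal of 0 therefore means a signal equal to the array's 75th percentile. The lowest value that could be set on every array was -6.50 on this scale. The muscle miRNAs rno-miR-1-3p and rno-miR-133a-3p were detected on all 6 arrays, and the liver miRNA rno-miR-122-5p and the brain miRNAs rno-miR-124-3p and rno-miR-9a-5p on none.

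All 10 detected members of the family had lower mean scaled signals in the model group than in the control group, with log2 fold changes from -0.72 to -0.44. By limma with Benjamini-Hochberg adjustment over 214 miRNAs, 5 of the 10 fell with an adjusted p under 0.05: rno-miR-30b-5p, rno-miR-30e-5p, rno-miR-30a-3p, rno-miR-30c-2-3p and rno-miR-30e-3p. That was 50% of the members tested, where 12.6% of all miRNAs tested were called lower in the model group. The other direction held 0 members, against 10.3% of all miRNAs (limma). In 9 of the 10, every model array was below every control array, which was so for 30.8% of all miRNAs tested. A log2 fold change below 0 was found for 64.0% of all miRNAs tested, and the median over the miRNAs detected on all arrays was -0.15 after this scaling. Relative to that median, the log2 changes of the members ran from -0.57 for rno-miR-30e-3p to -0.29 for rno-miR-30a-5p. None of the 10 changed more than 2-fold. In total RNA of whole tissue, fewer cells of a type and less miRNA per cell cannot be told apart.

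**Figure D1:**
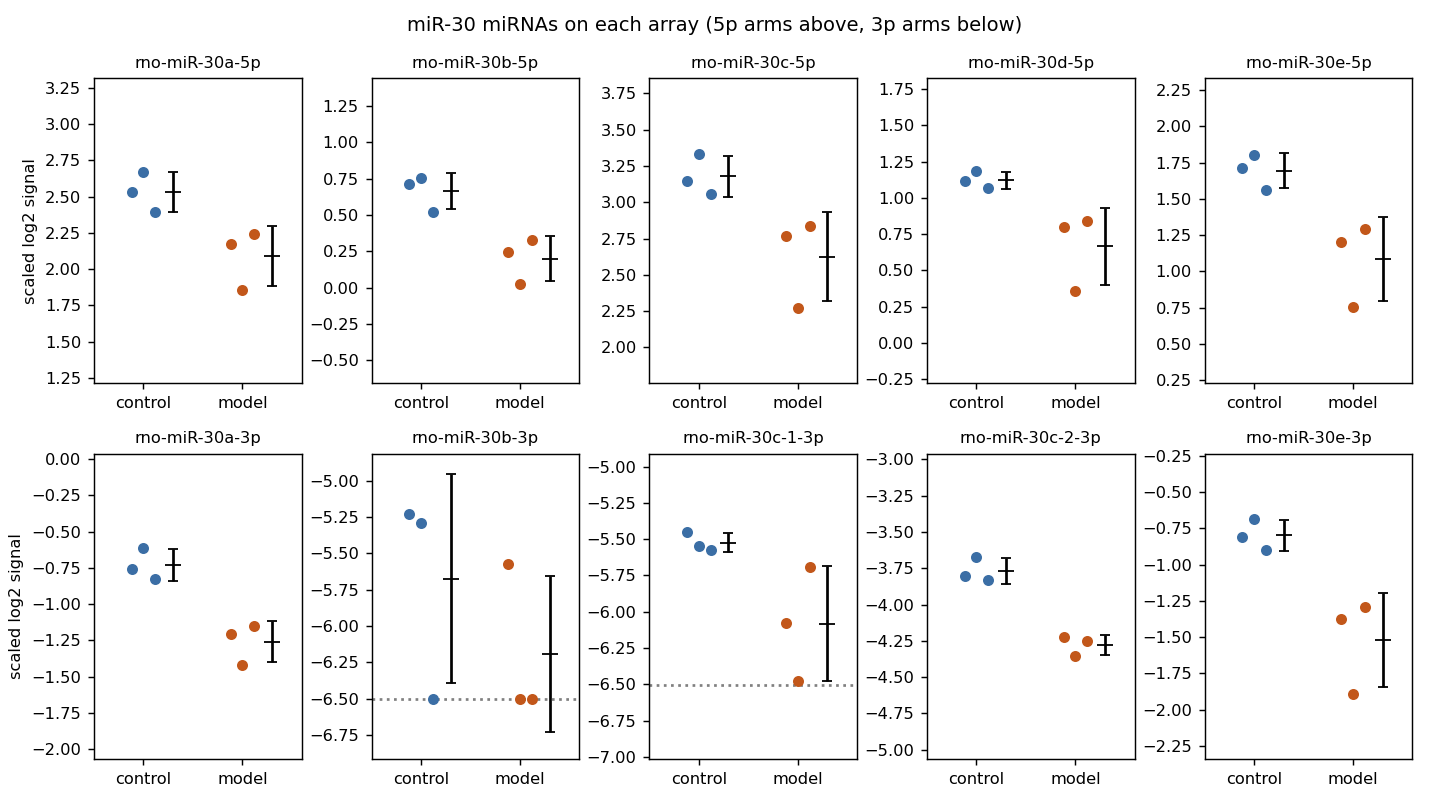
Scaled log2 signal (y axis) of 10 miR-30 miRNAs in control (blue) and model (orange) arrays, 1 point per array in the order of replicates 1 to 3, with the group mean and SD (n = 3) as black marks and the lowest set value as a dotted line. Every panel spans the same log2 range, and in all panels but that of rno-miR-30b-3p the 3 model points lie below the 3 control points.

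Of the 5p arms, rno-miR-30c-5p gave scaled log2 signals of 3.15, 3.33 and 3.05 on control arrays 1, 2 and 3 and 2.76, 2.27 and 2.84 on model arrays 1, 2 and 3. The groups did not overlap, and model array 2 was the lowest. Its log2 fold change was -0.55 (SE 0.17, adjusted p = 0.0762 by limma), so that it did not pass the threshold.

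The scaled log2 signal of rno-miR-30a-5p was 2.53, 2.67 and 2.39 in control rats against 2.17, 1.86 and 2.24 in model rats. Again all model arrays were lower, with model array 2 the lowest. The log2 fold change of rno-miR-30a-5p was -0.44 (SE 0.13, adjusted p = 0.0676 by limma), the smallest change of the 10 members. The change in rno-miR-30d-5p was close to it in size, at -0.45 (SE 0.14, adjusted p = 0.0793 by limma). Its scaled log2 signals were 1.11, 1.18 and 1.07 in the control group against 0.80, 0.36 and 0.84 in the model group, without overlap.

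Both 5p arms that passed the threshold did so narrowly. The scaled log2 signal of rno-miR-30e-5p was 1.72, 1.80 and 1.56 in control rats against 1.21, 0.76 and 1.29 in model rats. The groups were separate, and rno-miR-30e-5p fell by 0.61 on the log2 scale (log2 fold change -0.61, 95% interval -1.01 to -0.21, adjusted p = 0.0441 by limma), a 1.53-fold decrease. For rno-miR-30b-5p the scaled log2 signals were 0.71, 0.75 and 0.52 in control rats against 0.25, 0.03 and 0.33 in model rats. The rno-miR-30b-5p signal fell by 0.46 (log2 fold change -0.46, 95% interval -0.74 to -0.18, adjusted p = 0.0345 by limma), and here too the groups did not overlap.

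Among the 3p arms, rno-miR-30e-3p changed most. Its scaled log2 signals were -0.81, -0.69 and -0.90 for controls against -1.37, -1.89 and -1.29 for model rats, all lower. The log2 fold change of rno-miR-30e-3p was -0.72 (SE 0.18, adjusted p = 0.0345 by limma), which ranked 8 from the lowest among the 214 miRNAs, and the ranks of the 10 members ran from 8 to 36. This arm passed in 6 of 17 alternative fits. It did not pass with quantile normalization, median centring or the authors' values (adjusted p = 0.0587, 0.0629 and 0.0631 by limma). The arm rno-miR-30a-3p had scaled log2 signals of -0.76, -0.61 and -0.82 in control rats against -1.20, -1.42 and -1.15 in model rats. It fell by 0.53 (log2 fold change -0.53, SE 0.11, adjusted p = 0.0204 by limma) and its groups were separate.

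The dimmer arm rno-miR-30c-2-3p gave scaled log2 signals of -3.80, -3.67 and -3.83 in the control group against -4.22, -4.36 and -4.25 in the model group. Its log2 fold change was -0.51 (SE 0.083, adjusted p = 0.0127 by limma), the smallest adjusted p of the 10 members, and its SD among the model arrays (0.071) was also their smallest. Only 1 of its 2 probes was detected. It passed in 9 of 17 alternative fits, but not with normexp, quantile normalization or the authors' values (adjusted p = 0.147, 0.0967 and 0.127 by limma). The arm rno-miR-30c-1-3p lay near the detection limit, at -5.45, -5.55 and -5.58 in control rats against -6.08, -6.48 and -5.69 in model rats. Its log2 fold change of -0.56 (SE 0.20, adjusted p = 0.109 by limma) did not pass.

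Of the remaining 3p arms, rno-miR-30b-3p was at the lowest set value on control array 3 and model arrays 2 and 3, and at -5.23, -5.29 and -5.58 on control arrays 1 and 2 and model array 1. Its groups overlapped (log2 fold change -0.52, SE 0.43, adjusted p = 0.378 by limma). The eleventh family miRNA, rno-miR-30d-3p, was not detected on any array and was not tested.

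**Figure D2:**
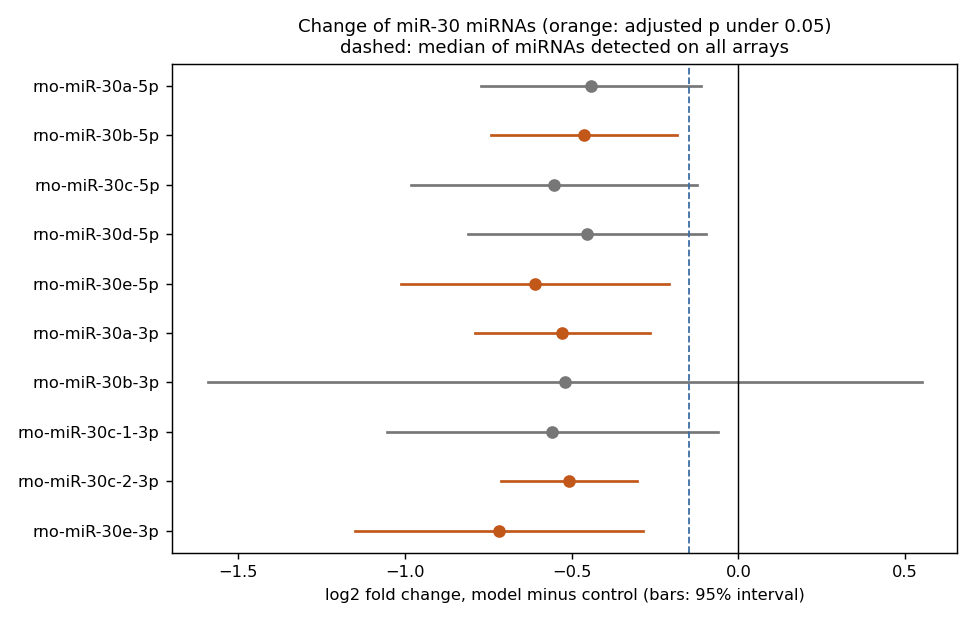
Log2 fold change between model and control arrays (x axis) of the 10 tested miR-30 miRNAs with its 95% interval from limma (n = 3 per group), in orange where the adjusted p was under 0.05. All 10 points lie between -0.72 and -0.44, to the left of the dashed line at -0.15, which marks the median over miRNAs that all arrays detected.

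The probes of a miRNA gave nearly the same change. In the 7 miRNAs with 2 probes detected on all arrays, the log2 fold changes of both probes differed by at most 0.037, as in rno-miR-30e-5p, where they were -0.61 and -0.61. The median coefficient of variation among the spots of 1 probe was 0.88% to 4.5% for the 5p arms, against 23.1% for the probe of rno-miR-30b-3p that was detected on all arrays and 18.0% for that of rno-miR-30c-1-3p. No spot of the family was saturated on any array.

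Summed over the 5 members, the scaled 5p signal of the model group was 70.1% of the control level, a log2 difference of -0.51. This scaled 5p total was 21.7, 23.9 and 20.0 times the array's 75th percentile in control rats against 16.5, 12.5 and 17.4 times in model rats. On the log2 scale it was 4.45 ± 0.13 (SD, n = 3) against 3.93 ± 0.26 (SD, n = 3), and the groups did not overlap. The 3p total was 65.7% of the control level, a log2 difference of -0.61. No test was made of either total, because the family was chosen with earlier results of these arrays known. The make-up of the 5p total varied little, for rno-miR-30c-5p held 38.8% to 42.2% of its signal on each array and rno-miR-30b-5p 7.1% to 8.2%.

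The separation of the groups depended on scaling the arrays. Before scaling, the 5p total was 3150, 4518 and 2918 for controls against 3359, 2402 and 2924 for model rats, and these values overlapped. Without scaling, all model arrays were below all control arrays in 0 of the 10 members and 15 of the 214 miRNAs, and no member had an adjusted p (0 members) or an unadjusted p (0 members) under 0.05 by limma. Over all 214 miRNAs, 22 were called higher and 27 lower with the 75th percentile scaling, 19 and 47 where that percentile was taken over all miRNAs, 30 and 16 with centring on the array medians, 23 and 14 with the authors' values, and 19 and 0 without scaling. The divisor itself differed, at 145, 189 and 146 in control rats against 203, 193 and 168 in model rats. The log2 difference of the unscaled 5p total was -0.27. The log2 fold changes of all 10 members were below 0 under no scaling (-0.49 to -0.20), centring on the array medians (-0.59 to -0.32), quantile normalization (-0.69 to -0.26) and the authors' normalized values (-2.19 to -0.24).

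**Figure D3:**
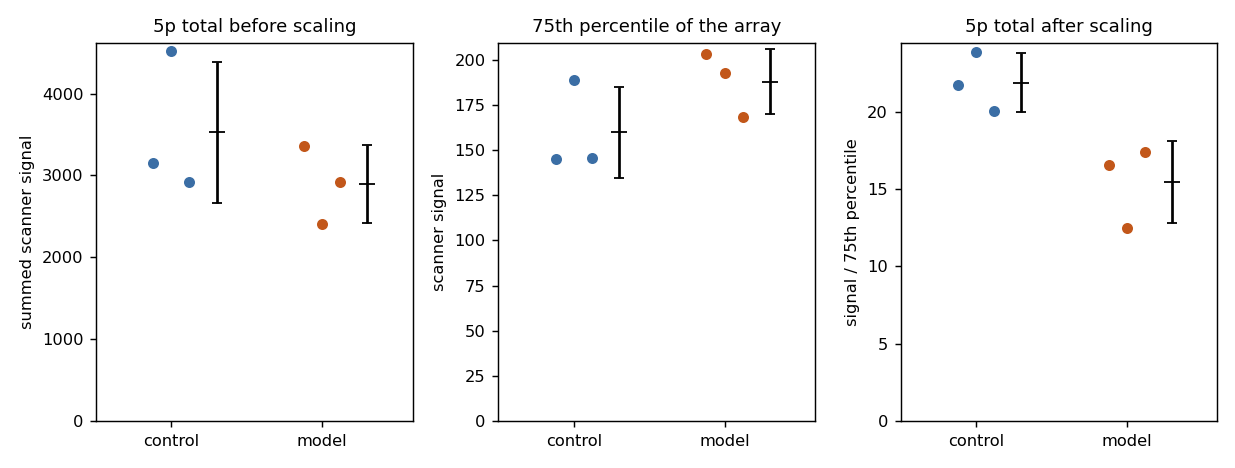
The summed scanner signal of the 5 miR-30 5p miRNAs before scaling (left), the 75th percentile used as divisor (middle) and the scaled total (right), 1 point per array in the order of replicates 1 to 3, with group mean and SD (n = 3). Unscaled totals of 2918 to 4518 and 2402 to 3359 overlap, whereas scaled totals of 20.0 to 23.9 and 12.5 to 17.4 do not.

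The number of called members also depended on single arrays. It was 0, 1 and 2 without control array 1, 2 or 3, and 2, 3 and 5 without model array 1, 2 or 3, while all 10 log2 fold changes stayed below 0 in each of these fits. Over all miRNAs tested in the same fits, 0.926%, 4.67% and 6.51% were called lower without control array 1, 2 or 3, and 6.98%, 8.29% and 9.72% without model array 1, 2 or 3. Model arrays 2 and 3 lay in the second row of the slide, and the other 4 arrays in the first. Within the first row, model array 1 differed from the mean of the control arrays by -0.32 for rno-miR-30d-5p to -0.58 for rno-miR-30e-3p on the log2 scale, and by 0.10 for rno-miR-30b-3p. With the row as a block, 0 members had an adjusted p under 0.05 by limma, where 18 of all 214 miRNAs (8.41%) were called lower. An unadjusted p under 0.05 was found in 2 members in that fit, and its share over all miRNAs was not counted.

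**Figure D4:**
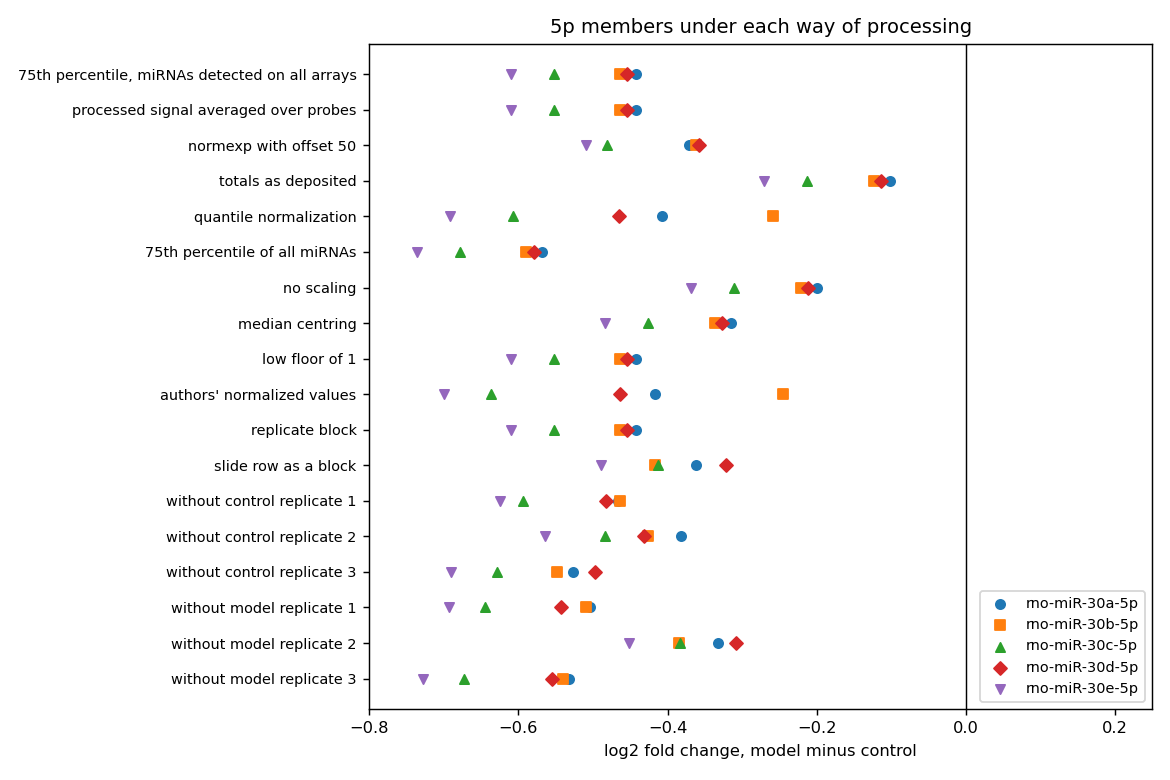
Log2 fold change between model and control (x axis) of the 5 miR-30 5p miRNAs under each way of processing and with each array left out (y axis). All points lie below 0, the nearest to it being -0.10 for rno-miR-30a-5p with the totals as deposited.

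The differences between the 5p arms were measured within arrays, where a scale factor per array has no effect on miRNAs that stand above the lowest set value, as all 5p arms did on all arrays. Among the 10 pairs of 5p arms, the log2 difference of a pair did not overlap between groups in 4 pairs (40%), close to the 41.8% of all pairs of miRNAs detected on all 6 arrays. With a share so close to that of all pairs, these separations are not particular to the miR-30 arms. The change in rno-miR-30e-5p was larger than in rno-miR-30a-5p by 0.17, in rno-miR-30d-5p by 0.16 and in rno-miR-30b-5p by 0.15, and these were 3 of the 4 pairs. In the other pair, the change in rno-miR-30c-5p was larger than in rno-miR-30a-5p by 0.11. Each of the 4 had an exact permutation p of 0.1, the lowest possible for 3 against 3 arrays, without adjustment over the 10 pairs. The change in rno-miR-30a-5p minus that in rno-miR-30b-5p was 0.02 with the 75th percentile scaling, -0.15 with quantile normalization and -0.17 with the authors' values, so that their order depended on the processing. The larger change in rno-miR-30e-5p than in rno-miR-30a-5p was 0.14 with normexp, 0.28 with quantile normalization and 0.28 with the authors' values.

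The 5p and 3p arms of a precursor were also compared within arrays, for the 5 precursors whose arms were both detected on all arrays. The arm rno-miR-30b-3p was at the lowest set value on 3 of the 6 arrays and rno-miR-30c-1-3p stood near it, so their differences also moved with the scaling. In miR-30e the log2 difference of the arms (5p minus 3p) was 2.52, 2.49 and 2.47 in control rats against 2.58, 2.64 and 2.58 in model rats, so that the 3p arm was lower relative to the 5p arm on every model array. The change was 0.11 (p = 0.10 in a two-sided exact permutation test, where 3 against 3 arrays can give no lower p, and 0.5 after adjustment over 5 precursors). The sign of this change was reversed with normexp, quantile normalization and the authors' values. Normexp was run with an added offset of 50, which shrinks the changes of dimmer miRNAs most. With it, rno-miR-30e-3p changed by -0.45 and rno-miR-30e-5p by -0.51, so its reversal is no independent check of the arms. The arms of miR-30a, miR-30c-1 and miR-30c-2 changed by 0.086, 0.0054 and -0.044 (exact permutation p = 0.3, 1 and 0.9), and their groups overlapped. The difference in miR-30b changed by 0.057, which rests on set values of its 3p arm and gives no measure of its change, and it was 0.26 without scaling and -0.12 with the 75th percentile of all 758 miRNAs. Of the 5 precursors, 1 had groups that did not overlap, where 41.8% of all pairs of miRNAs detected on all 6 arrays did not. The separation in miR-30e is therefore not particular to its arms. The miR-30c precursors share their 5p arm, so their comparisons are not independent.

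The lists of cell type miRNAs place these changes among those of other miRNAs. Of the 11 cardiomyocyte or muscle miRNAs listed, 8 were tested, of which 6 fell and 0 rose (limma, adjusted p under 0.05), with a median log2 fold change of -0.74. Their summed scaled signal was 152 to 181 in the control group and 79.8 to 112 in the model group, and rno-miR-208b-3p, rno-miR-208b-5p and rno-miR-499-3p were not detected. The median of the 5p arms was -0.46 and that of the 3p arms -0.53, against -0.14 over all 214 miRNAs. Of the tested 5p and 3p arms, 2 of 5 and 3 of 5 were called lower. Over all 214 miRNAs, 12.6% were called lower and 10.3% higher, and the counts of every list are to be read beside these shares. Of the 7 fibroblast or matrix miRNAs, 4 rose and 0 fell, with a median of 1.1 and a summed scaled signal of 17.9 to 22.5 in the control group and 24.1 to 29.2 in the model group. The risers were rno-miR-21-5p, rno-miR-199a-5p, rno-miR-199a-3p and rno-miR-214-3p, while rno-miR-29a-3p, rno-miR-29b-3p and rno-miR-29c-3p did not pass. Both endothelial arms, rno-miR-126a-3p and rno-miR-126a-5p, fell (median -0.54, summed scaled signal 8.16 to 9.17 against 5.98 to 6.66). Of 5 leukocyte miRNAs tested, rno-miR-155-5p rose and rno-miR-150-5p fell, with a median of -0.07 and a summed scaled signal of 2.85 to 3.47 against 2.03 to 2.51. Of 2 red blood cell miRNAs tested, rno-miR-486 fell and rno-miR-451-5p did not pass, with a median of -0.60 and a summed scaled signal of 1.79 to 2.10 against 1.13 to 1.43. The part of these cell types in the miR-30 change was not tested.

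Within each array, the log2 of the 5p total minus the mean of the 7 cardiomyocyte or muscle miRNAs detected on all arrays was 2.38, 2.28 and 2.26 in control rats against 2.56, 2.56 and 2.51 in model rats. It was higher on every model array, by 0.24 in the mean, the muscle miRNAs having changed by -0.75 and the 5p total by -0.51. This gap depended on the processing. The mean log2 fold change of the 5p arms minus that of the 7 muscle miRNAs was 0.25 with the 75th percentile scaling, 0.14 with normexp, -0.04 with quantile normalization and 0.003 with the authors' values. Against the mean of the fibroblast or matrix miRNAs, the 5p total was lower on every model array, by 1.32 in the mean. That list mean also includes rno-miR-29a-3p, rno-miR-29b-3p and rno-miR-29c-3p, which did not rise. Against the endothelial arms, the groups overlapped, with a mean difference of 0.02. Of all pairs of single miRNAs detected on all 6 arrays, 41.8% had groups that did not overlap. No such share was counted for means of lists.

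**Figure D5:**
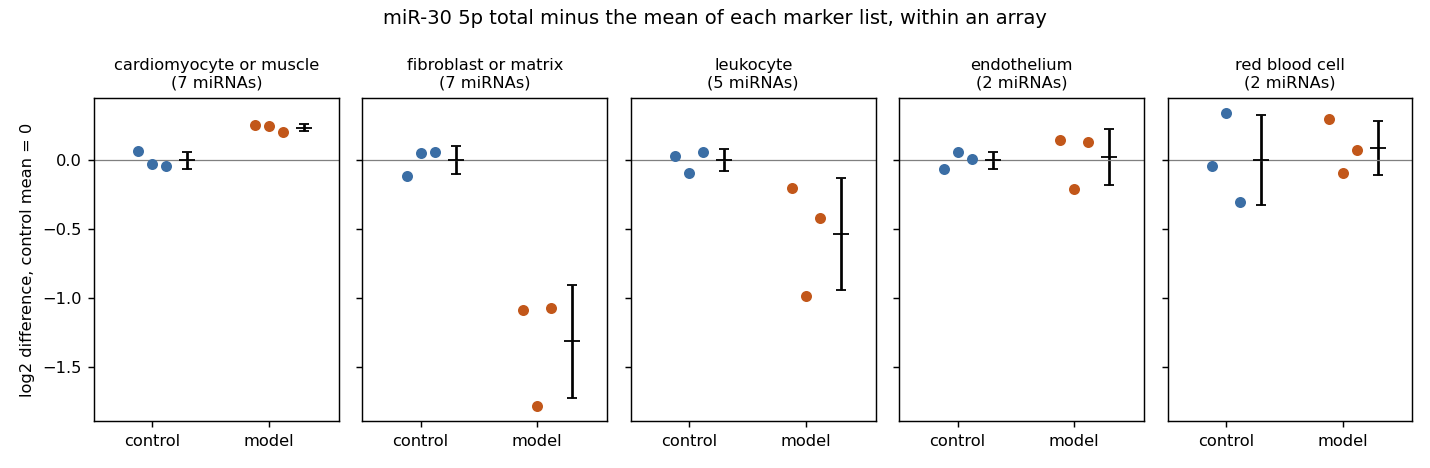
Log2 of the miR-30 5p total minus the mean log2 signal of each marker list within an array (y axis, control mean set to 0), 1 point per array in the order of replicates 1 to 3, with group mean and SD (n = 3). The model points lie above the controls for the cardiomyocyte or muscle list, below them for the fibroblast or matrix and leukocyte lists, and overlap them for the endothelium and red blood cell lists.

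The miRNAs outside the family whose profile over the 6 arrays was most like the 5p total were rno-miR-185-5p, rno-miR-22-5p and rno-miR-133a-5p. Their root mean square differences from the centred log2 profile of the 5p total were 0.076, 0.10 and 0.11, where the median over the 188 miRNAs compared was 0.32. Their log2 fold changes were -0.43 (adjusted p = 0.0913 by limma), -0.34 (0.133) and -0.70 (0.0170). Model array 2 was the lowest of the 6 for each of them, as it was for all tested miR-30 miRNAs but rno-miR-30b-3p.

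The total signals that the software had written could not be used for 3 members. On all 6 arrays, the deposited total of rno-miR-30b-3p held the signal of rno-miR-30a-5p in addition to its own, that of rno-miR-30c-1-3p held the signal of rno-miR-30b-5p, and that of rno-miR-30c-2-3p held the deposited total of rno-miR-30c-1-3p. In each case the added part equalled the deposited total of the preceding miRNA within a relative tolerance of 0.0001, in 18 of 18 cases. On control array 1, for instance, the detected probes of rno-miR-30b-3p summed to 3.87 and its deposited total was 843. The totals of the 5p arms held no such addition, and they matched the sums of their probes.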

How the data were processed

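MiRNA signals of 3 control and 3 model arrays were analysed, grouped by the sample labels. The authors deposited spot-level intensity data written by Agilent Feature Extraction 10.7.1.1, with background already removed and no scaling from array to array. They also deposited a table of log2 values normalized by a method not given in the sources used here. Their column medians over all miRNAs were -3.22, -3.30 and -3.25 (control) and -3.31, -3.31 and -3.31 (model), and against the scanner's log2 signals of detected miRNAs they had slopes of 0.979 to 1.05, a log2 scale rising with signal. Their centring stays unknown.

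Probe signals over 3 times their error were summed per miRNA, divided by each array's 75th percentile over the 198 miRNAs detected on all 6 arrays, raised to the floor of -6.50 where lower, and taken to log2. As in the study, a miRNA was kept if all arrays of 1 or both groups detected it (214 of 758). The groups were compared without covariates using limma 3.58.1 (R 4.3.3), and p-values were adjusted by the Benjamini-Hochberg method over all 214. Each array held RNA of 1 rat, and the 3 arrays per group limit the precision. Figures were drawn with Python 3.11.15 and matplotlib 3.10.9.

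The members, the lists of cell type miRNAs and the tests were chosen with earlier results of these data known. Named were all family miRNAs, other miRNAs with the same seed, the miRNAs carried over into their totals, the 3 miRNAs most like the 5p total and members of the lists. The alternatives were other summaries, background corrections, scalings, floors, filters, tests and blocks, the authors' values, and leaving out each array. A block for slide or scan time could not be fitted, since all arrays shared 1 slide and 1 scan time. Replicate numbers did not pair the arrays (correlations of deviations across miRNAs -0.257, 0.00113 and 0.162).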

Additional observations from a re-analysis of the deposited data

How the results depend on the processing

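Of the 10 members, 9 kept a log2 fold change below 0 under all alternatives, and rno-miR-30b-3p, at or near the lowest set value, reached 0.099 with the slide row as a block. The number of members with an adjusted p under 0.05 was 5. It was 0 with totals as deposited, no scaling, no detection filter, a replicate block and the slide row as a block (limma), where 1, 0, 3, 4 and 18 of all miRNAs tested were called lower at the same threshold. It was 2 with median centring and 3 with the authors' normalized values, where 7.48% and 6.54% of all miRNAs were called lower. Those 3 were rno-miR-30a-3p, rno-miR-30e-5p and rno-miR-30d-5p, the last not among the 5. By the methods' t-test it was 1 after Benjamini-Hochberg adjustment (5.14% of all miRNAs lower) and 8 without it (18.2%). With 1 array left out it was 0 to 5. The arm rno-miR-30b-5p passed in 4 of 17 alternative fits, and in none with 1 array left out. In the same 17 fits, rno-miR-30e-5p passed in 7. The shares of all miRNAs at an unadjusted p under 0.05 by limma were not counted. Without the filter, 758 miRNAs were tested. The cause of the other shifts was not tested.

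The log2 difference of the 5p total was -0.51, against -0.17 with totals as deposited and -0.27 without scaling. The deposited totals of the 5p arms matched their probe sums, so with these totals only the divisor of each array differed. That divisor was taken over totals of which some held the signal of other miRNAs, so the -0.17 is no separate measure of the 5p arms. The change of 5p minus 3p arms was -0.026 with normexp for miR-30a. For miR-30b it was -0.086 with the processed signal, -0.31 with normexp, -0.020 with totals as deposited, -0.12 with the percentile over all miRNAs, 1.94 with the authors' values and -0.17 to 0.39 with 1 array left out. For miR-30c-1 it was -0.44 with normexp, -0.088 with totals as deposited, -0.16 with quantile normalization, -0.058 with the percentile over all miRNAs, 0.62 with the authors' values and -0.074 to 0.096 with 1 array left out. For miR-30c-2 it was -0.32 with normexp, -0.24 with the authors' values and -0.14 to 0.092 with 1 array left out. For miR-30e it was -0.063 with normexp, -0.062 with quantile normalization and -0.083 with the authors' values. The deposited 3p totals of miR-30b, miR-30c-1 and miR-30c-2 held the signal of other miRNAs, so they gave no measure of the arm change. The normexp values carry an added offset of 50, which shrinks the change of the dimmer 3p arm more than that of the 5p arm. The scalings of the arms were chosen after seeing the data. Without scaling and with median centring, the changes of miR-30a, miR-30c-1, miR-30c-2 and miR-30e were unaltered. A factor per array cancels within an array where both arms stand above the lowest set value, so these settings are no check of them. The change of miR-30b kept its sign, but it rests on set values. Signals near the detection limit, as for rno-miR-30b-3p and rno-miR-30c-1-3p, set no order below it.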
